A study of Mus musculus with 6 samples.

Results

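Trim28, Setdb1 and the 3 genes of heterochromatin protein 1 (HP1), Cbx1, Cbx3 and Cbx5, were taken by symbol from a table of 12331 gene rows. All 5 had a row, and all 5 passed the filter of at least 1 RPKM in at least 3 of the 6 libraries, as did 6327 genes in all. RPKM are reads scaled to gene length and to the alignments of the library. Whether reads covered each transcript evenly was not tested, so levels, shares and ratios across different genes are only a rough guide. The libraries came from E14tg2a, an established line of mouse embryonic stem cells grown with LIF and serum. All 6 started from 10 pg of purified total RNA, an amount like that of a single cell, although the sample notes call it a single cell lysate. The RNA was primed with oligo(dT), and the cDNA went through 20 PCR cycles. In 3 libraries the cDNA was cut and tagged by a hyperactive Tn5 transposase (tagmentation), and in the other 3 it was sheared by sonication and ligated to adaptors. Both methods carry the replicate numbers 1 to 3, described as technical replicates, so all p-values measure only the spread among technical libraries. The comparison addressed how the library methods perform on cDNA of this amount.

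Trim28 (also KAP1 or TIF1-beta) is the co-repressor that zinc finger proteins with a KRAB domain bring to retrotransposons and imprinted regions in embryonic stem cells. It recruits Setdb1, an enzyme that methylates lysine 9 of histone H3 (H3K9). The HP1 proteins bind that mark through their chromodomain and bind partners such as Trim28 through their chromoshadow domain, which holds the region in a silent state. Cbx5 encodes HP1-alpha, Cbx1 encodes HP1-beta and Cbx3 encodes HP1-gamma.

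The 3 HP1 genes are related in sequence, so their coding sequences were compared to see how much the paralogs share at the scale of a read. The coding stretch of 60 bases in which they are most alike is given here from the GENCODE M21 transcripts (build GRCm38), with capitals where all 3 have the same base.
Cbx1: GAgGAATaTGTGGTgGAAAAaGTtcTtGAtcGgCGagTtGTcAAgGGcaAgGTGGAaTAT
Cbx3: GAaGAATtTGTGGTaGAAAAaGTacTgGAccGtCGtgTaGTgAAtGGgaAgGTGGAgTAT
Cbx5: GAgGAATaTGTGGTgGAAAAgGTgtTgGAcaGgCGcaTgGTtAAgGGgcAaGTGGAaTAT
These are bases 55 to 114 of the Cbx1 coding sequence (chromosome 11, plus strand), 82 to 141 of Cbx3 (chromosome 6, plus strand) and 52 to 111 of Cbx5 (chromosome 15, minus strand). All 3 genes have the same base at 41 of the 60 positions. Over the aligned coding sequence Cbx1 and Cbx3 were 69.5% identical, Cbx1 and Cbx5 67.0%, and Cbx3 and Cbx5 64.5%. The longest run of identical bases between any pair of the transcripts was 20 bases, between Cbx1 and Cbx5.

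Copies elsewhere in the genome bear on Cbx3 most. A search of all GENCODE M21 transcripts found 13 other genes that match the Cbx3 transcript at 90% identity or more over at least 200 bases. Of these, 11 are processed pseudogenes, and 4 of the 13 match at 99% or more, among them Cbx3-ps6 (99.8% over 552 bases) and Cbx3-ps7 (99.6% over 552 bases). Cbx1 had 1 such copy, a processed pseudogene at 92.8%. Setdb1 had 1, the noncoding gene Gm4349 at 99.6% over 271 bases, and Trim28 and Cbx5 had none. None of these copies has a row in the table. How reads with several matches were counted is not given in the sources used here, so the level of Cbx3 is uncertain.

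The libraries had 21007424 to 34681566 alignments after tagmentation and 18852822 to 30296557 after sonication. Markers of embryonic stem cells were present as the label has it: all 8 listed genes, such as Pou5f1 and Dppa5a, reached 1 RPKM in at least 1 library and 6 did so in all 6. Their summed level was 1364 to 2270 RPKM after tagmentation and 898 to 2349 RPKM after sonication. Of the markers of other cell types, the 4 fibroblast genes with a row summed to 0.126 to 9.55 RPKM after tagmentation and 0.402 to 12.1 RPKM after sonication. The single endoderm gene with a row, Dab2, was at 0 to 9.29 RPKM after tagmentation and 0 to 5.54 RPKM after sonication. The 4 neuroectoderm genes, mostly through Tubb3, summed to 14.6 to 51.1 RPKM after tagmentation and 33.9 to 47.8 RPKM after sonication. The 3 trophoblast genes summed to 20.6 RPKM in tagmentation library 1 and 20.7 RPKM in sonication library 1, and to at most 0.561 RPKM in the others. The 3 mesoderm genes with a row are given beside Cbx1.

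Trim28 had by far the highest level of the 5 genes in every library. It had 180, 324 and 391 RPKM in tagmentation libraries 1 to 3, against 317, 346 and 368 RPKM in sonication libraries 1 to 3. The methods overlapped, and tagmentation library 1 was the lowest of the 6. In each library 97.5% to 98.9% of all rows had a lower value than Trim28, so the co-repressor ranked among the most abundant transcripts listed. The RNA was purified from many cells, so a level cannot tell fewer cells with a transcript apart from less of it per cell.

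Setdb1, the H3K9 methyltransferase recruited by Trim28, had 11.0, 25.6 and 0.287 RPKM in tagmentation libraries 1 to 3, against 12.0, 18.7 and 0.699 RPKM in sonication libraries 1 to 3. Both libraries of number 2 were high and both of number 3 were low, whichever method was used. In number 3 the low values rested on about 46 reads after tagmentation and about 61 after sonication, estimated from the RPKM, the alignments and a transcript length of 4658 bases.

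Cbx1, the HP1-beta gene, had 6.88, 71.3 and 6.34 RPKM in tagmentation libraries 1 to 3, against 5.96, 55.2 and 4.50 RPKM in sonication libraries 1 to 3. Number 2 stood high in both methods, and numbers 1 and 3 lay close to each other. The mesoderm markers were also highest in number 2, with a summed level of 88.5 RPKM in tagmentation library 2 and 64.1 RPKM in sonication library 2. Unlike Cbx1, the sum was far apart in numbers 1 and 3. In number 3 it was 12.6 RPKM after tagmentation and 7.11 RPKM after sonication. In number 1 it was 0.339 RPKM after tagmentation and 0.253 RPKM after sonication. T, the gene of the mesoderm factor Brachyury, held most of this (in number 2, 83.2 RPKM after tagmentation and 61.3 RPKM after sonication), and Mixl1 was at or near 0 throughout. Their part in the Cbx1 values was not tested.

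Cbx3, the HP1-gamma gene, had 15.2, 0.801 and 1.66 RPKM in tagmentation libraries 1 to 3, against 9.01, 2.32 and 5.62 RPKM in sonication libraries 1 to 3. Number 1 was highest in both methods and number 2 lowest, with about 52 reads after tagmentation and about 96 after sonication. The trophoblast, endoderm, fibroblast and embryonic stem cell marker sums were also highest in number 1, and the neuroectoderm sum was lowest there. Only 1 of the 3 trophoblast genes and 1 of the 4 fibroblast genes with a row reached 1 RPKM in any library. The endoderm sum is 1 gene, so none of these sums shows several genes of a cell type rising together. The embryonic stem cell sum was 2270, 1722 and 1364 RPKM in tagmentation libraries 1 to 3, against 2349, 1387 and 898 RPKM in sonication libraries 1 to 3. The part of these markers in the Cbx3 values was not tested. Cbx5, the HP1-alpha gene, had 19.1, 0.472 and 15.1 RPKM in tagmentation libraries 1 to 3, against 14.6, 1.68 and 7.76 RPKM in sonication libraries 1 to 3. For Cbx5 it was number 2 that stood apart, at the low end, where Cbx1 was at its highest.

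**Figure D1:**
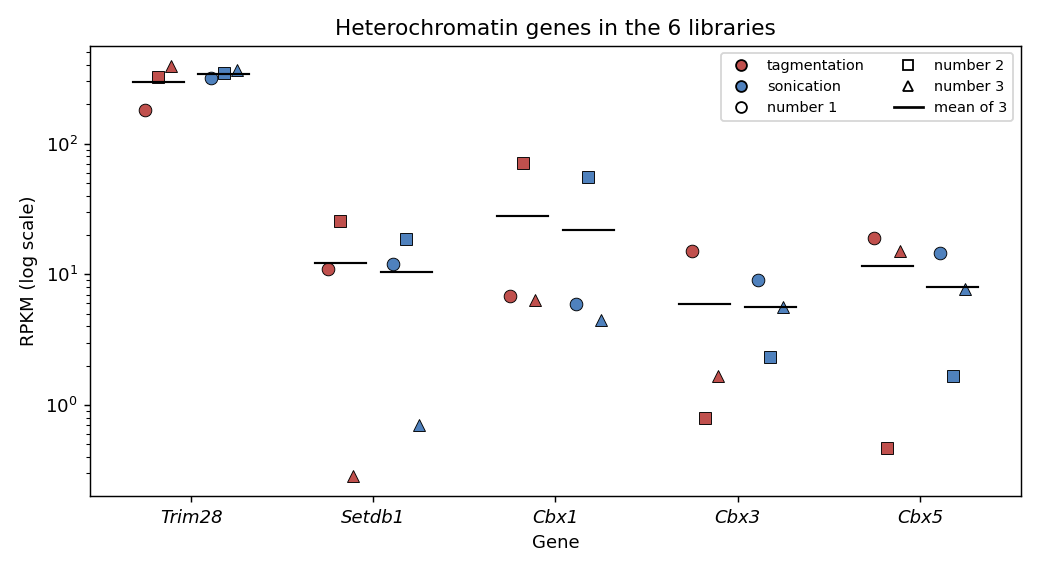
RPKM (log scale) of the 5 genes in tagmentation libraries (red, left) and sonication libraries (blue, right), with the replicate number as the marker shape and the mean of 3 libraries as a bar. Trim28 lies between 180 and 391 RPKM throughout. For all 5 genes, Trim28 among them, the same marker shapes stand highest and lowest in both methods, over a wider range for the other 4 genes.

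The order of levels below Trim28 changed with the replicate number. In number 1 the order after tagmentation was Cbx5, Cbx3, Setdb1 and Cbx1, against Cbx5, Setdb1, Cbx3 and Cbx1 after sonication. In number 2 it was Cbx1, Setdb1, Cbx3 and Cbx5 with both methods. In number 3 it was Cbx5, Cbx1, Cbx3 and Setdb1 after tagmentation, against Cbx5, Cbx3, Cbx1 and Setdb1 after sonication. Averaged over 3 libraries (SD, n = 3), Trim28 had 298 ± 108 RPKM after tagmentation and 344 ± 25.3 RPKM after sonication. Cbx1 followed with 28.2 ± 37.4 RPKM after tagmentation and 21.9 ± 28.8 RPKM after sonication. Setdb1 averaged 12.3 ± 12.7 RPKM after tagmentation and 10.5 ± 9.08 RPKM after sonication. Cbx5 averaged 11.6 ± 9.81 RPKM after tagmentation and 8.01 ± 6.46 RPKM after sonication, and Cbx3 averaged 5.88 ± 8.06 RPKM after tagmentation and 5.65 ± 3.34 RPKM after sonication. Among Cbx1, Setdb1, Cbx5 and Cbx3, each mean lay within 1 SD of the next, so their order does not hold against the spread.

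None of the 5 genes was called between tagmentation and sonication in limma's test on log2(RPKM + 1) with method as the only term. In simulated data that test recovered 0 of 100 genes changed 4-fold, so a lack of calls does not show that levels were alike. Adjusted over all 6327 genes (Benjamini-Hochberg), 0 of the 5 were called against a background of 0%, with 18 of the 6327 genes at an unadjusted p under 0.05. With the replicate number as a block, limma called 208 genes, a background of 3.29%, and again 0 of the 5. The libraries of the 2 methods did not overlap in 2.4% of all tested genes and in none of the 5. Fold changes are given as log2 of tagmentation over sonication, after adding 1 to each RPKM, which understates changes of low genes.

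Cbx3 differed by -0.50, the largest of the 5 with this pseudocount, with an SE of 1.26 without the block and of 0.29 with it. With a pseudocount of 5 it was -0.16, smaller than the -0.27 of Trim28, and with quantile normalization it was -0.33, against -0.39 for Trim28. Its adjusted p in limma was 1.00 without the block and 0.379 with it, and the blocked 95% interval ran from -1.07 to 0.065. Like every blocked interval here, that one rests on a spread taken almost wholly from genes of like level. Within a number the methods differed by a median of 0.88 for Cbx3, against 0.32 for genes of like level. The interval and p may thus be too narrow and too small for this gene. Within the numbers Cbx3 was higher after tagmentation in number 1, by 0.69, and lower in numbers 2 and 3, by -0.88 and -1.31. The blocked value was -1.10 without number 1 (limma, adjusted p 0.0218), -0.31 without number 2 (0.999) and -0.094 without number 3 (0.989). The call without number 1 came from a fit that called 1051 of the 6327 genes.

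Cbx1 was higher after tagmentation in 3 of 3 pairs, by 0.18, 0.37 and 0.42 in numbers 1 to 3. The average of 0.32 had an SE of 1.30 without the block and 0.29 with it, and limma did not call it (adjusted p 1.00, and 0.646 with the block). Trim28 differed by -0.82 in number 1 and by -0.097 and 0.089 in numbers 2 and 3, on average -0.27 (SE 0.39, and 0.30 with the block; limma, adjusted p 1.00 and 0.717). Its blocked 95% interval was -0.87 to 0.32. Without tagmentation library 1 the average was 0.052 in the fit without the block, of the opposite sign. With the block and without number 1 it was -0.0040. With all 6 libraries, the blocked Trim28 value was -0.39 with quantile normalization (limma, unadjusted p 0.0131, adjusted p 0.0886). It was -0.33 with median-ratio scaling (limma, unadjusted p 0.0927, adjusted p 0.323). With other pseudocounts and filters limma's blocked adjusted p for Trim28 was 0.685 to 0.741.

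Setdb1 differed by -0.12, 0.43 and -0.40 in numbers 1 to 3, which averaged -0.028, with a blocked 95% interval of -0.59 to 0.54. Cbx5 differed by 0.37, -0.87 and 0.88, which averaged 0.13, with a blocked interval of -0.44 to 0.70. These intervals leave room for differences of either sign. They also rest on a spread that limma took almost wholly from genes of like level (212 degrees of freedom with the block, 9.99 without), so they say little of each gene's own 3 pairs. Without the block the intervals were far wider, for example -3.45 to 3.39 for Setdb1.

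**Figure D2:**
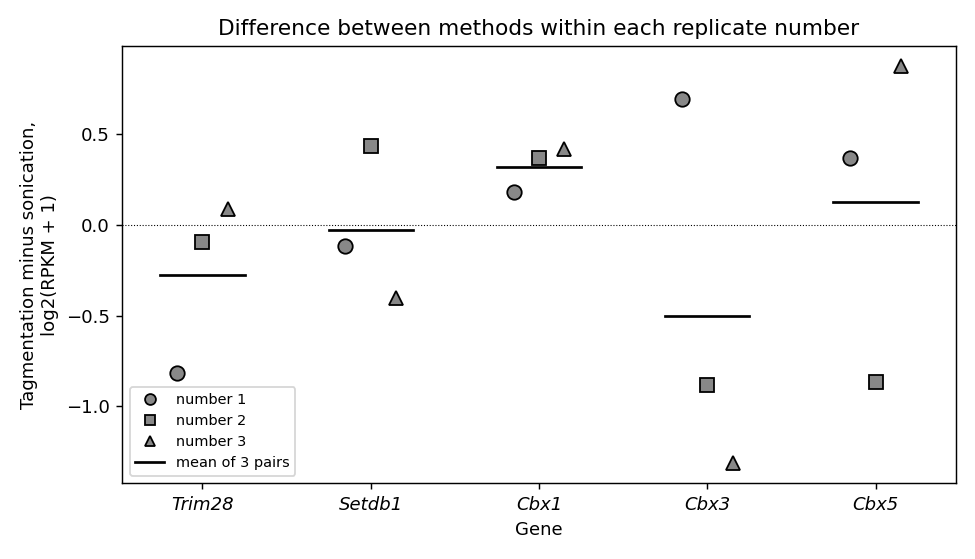
Difference in log2(RPKM + 1), tagmentation minus sonication, within each replicate number for the 5 genes, with the mean of 3 pairs as a bar. Cbx1 lies above 0 in all 3 pairs, and the other 4 genes have pairs on both sides of 0.

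The replicate number separated the levels of 4 of the 5 genes. In limma's F-test over the numbers, with method as a term, Setdb1, Cbx1, Cbx5 and Cbx3 were called at a Benjamini-Hochberg adjusted p under 0.05 and Trim28 was not. The background was 88.1% of all tested genes, so 4 of 5 lies near it. The same 4 genes were called with a span of at least 2 on the log2 scale between the highest and lowest number, against a background of 58.5%. The error of this test is the difference between methods within a number. The numbers were taken as pairs because same-numbered libraries agreed in these same values, so small p-values partly restate that agreement. The labels do not say whether such libraries share a cDNA. If they do, each number is a single cDNA and the p-values measure only the spread of library making.

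Setdb1 had the widest separation with this pseudocount, 3.95 on the log2 scale (adjusted p 2.3e-23), with a mean of 22.1 RPKM in number 2 and 0.493 RPKM in number 3, 44.9-fold apart. Cbx1 spanned 3.33 (adjusted p 2.6e-19), with 63.2 RPKM in number 2 and 5.42 RPKM in number 3, an 11.7-fold distance. Cbx5 spanned 3.15 (adjusted p 1.7e-16), with 16.9 RPKM in number 1 and 1.08 RPKM in number 2, 15.6-fold apart. Cbx3 spanned 2.38 (adjusted p 9.0e-10), with 12.1 RPKM in number 1 and 1.56 RPKM in number 2, 7.75-fold apart. These p-values are limma's and rest on a spread taken almost wholly from genes of like level, so their size depends on the processing. With no filter on low values limma's adjusted p was 0.0022 for Setdb1, 0.0015 for Cbx1, 0.014 for Cbx5 and 0.0554 for Cbx3, with the same spans. With a pseudocount of 5 Cbx1 spanned most, at 2.71, against 2.29 for Setdb1, 1.845 for Cbx5 and 1.37 for Cbx3, and with one of 0.1 Setdb1 spanned 5.30. All 4 were called with either. Trim28 spanned 0.67, with 379 RPKM in number 3 and 248 RPKM in number 1, 1.53-fold apart (limma, adjusted p 0.190). With other scalings limma called Trim28 as well, at 1.155 with median-ratio scaling (adjusted p 0.00484) and 0.60 with quantile normalization (adjusted p 0.0145).

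Without number 2, Cbx1 and Cbx5 were no longer called, at 0.22 (limma, adjusted p 0.754) and 0.58 (adjusted p 0.425). Cbx3 kept its size but lost the call when no filter on low values was used (adjusted p 0.0554). Without number 1 Trim28 spanned 0.18. Leaving out number 3 brought Setdb1 to 0.87, and leaving out number 1 brought Cbx3 to 0.78, both still called by limma (adjusted p 0.0332 for Setdb1 and 0.0206 for Cbx3).

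Beside genes of like level, meaning tested genes whose mean lay within a factor of 2, the spans were ordinary. For Trim28 (281 genes of like level) the median span was 0.93, and 33.1% of them spanned less. For Setdb1 (2503 genes) it was 3.19, and 70.5% spanned less. For Cbx1 (2258 genes) it was 2.66, with 61.6% below. For Cbx5 (2464 genes) the median was 3.21, with 48.5% below, and for Cbx3 (2056 genes) it was 2.99, with 29.6% below. Within a number the methods differed by a median of 0.88 for Cbx3 and 0.87 for Cbx5, against 0.32 and 0.33 for genes of like level. It was 0.40 for Setdb1 and 0.37 for Cbx1, against 0.33 for genes of like level in both cases, and 0.097 for Trim28, against 0.30.

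**Figure D3:**
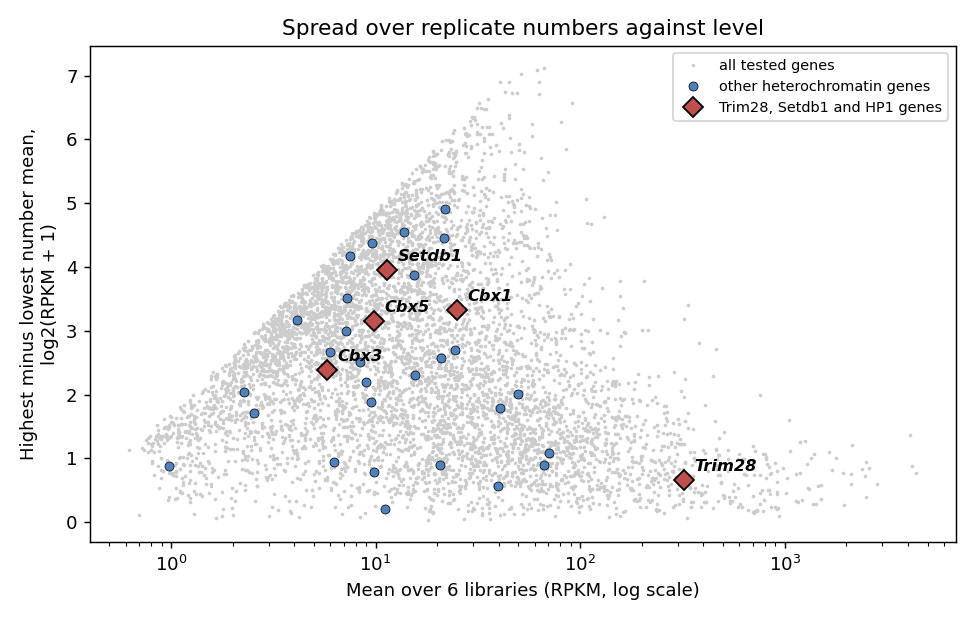
Highest minus lowest mean of the replicate numbers on the log2(RPKM + 1) scale against the mean RPKM over 6 libraries (log scale), for all tested genes (grey), 28 other heterochromatin genes (blue circles) and the 5 genes (red diamonds). Trim28 lies at 0.67 among abundant genes, and Setdb1, Cbx1, Cbx5 and Cbx3 lie at 2.38 to 3.95 within the cloud of genes of their level.

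The make-up of HP1 transcripts changed with the number more than with the method. Cbx1 made up 16.7%, 98.2% and 27.5% of the summed HP1 RPKM in tagmentation libraries 1 to 3, against 20.2%, 93.2% and 25.2% in sonication libraries 1 to 3. Cbx5 made up 46.4%, 0.650% and 65.3% after tagmentation, against 49.4%, 2.85% and 43.4% after sonication. Cbx3 made up 36.9%, 1.10% and 7.21% after tagmentation, against 30.5%, 3.92% and 31.4% after sonication. Thus Cbx1 led in both libraries of number 2 and Cbx5 led in the other 4. The largest gap within a number was for Cbx3 in number 3.

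Between methods the shares did not separate. Cbx1 averaged 47.5% ± 44.3 after tagmentation and 46.2% ± 40.8 after sonication (SD, n = 3; exact two-sided permutation p = 0.9). Cbx5 averaged 37.5% ± 33.3 after tagmentation and 31.9% ± 25.3 after sonication (exact permutation p = 0.8). Cbx3 averaged 15.1% ± 19.1 after tagmentation and 21.9% ± 15.6 after sonication (exact permutation p = 0.9). Adjusted over the 3 shares each p was 0.9, and 3 libraries against 3 cannot go below 0.1. The summed HP1 level was 41.2, 72.6 and 23.1 RPKM after tagmentation, against 29.6, 59.2 and 17.9 RPKM after sonication, and in both methods number 2 was highest and number 3 lowest. It was higher after tagmentation in 3 of 3 pairs, by 10.1 ± 4.34 RPKM (SD, n = 3). An exact permutation test gave p = 0.6 between methods without pairing, and exact sign flips of the paired differences gave 0.25, the smallest that 3 pairs allow. For the shares the paired p was 0.75 for Cbx1, 0.75 for Cbx3 and 1 for Cbx5 (exact).

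**Figure D4:**
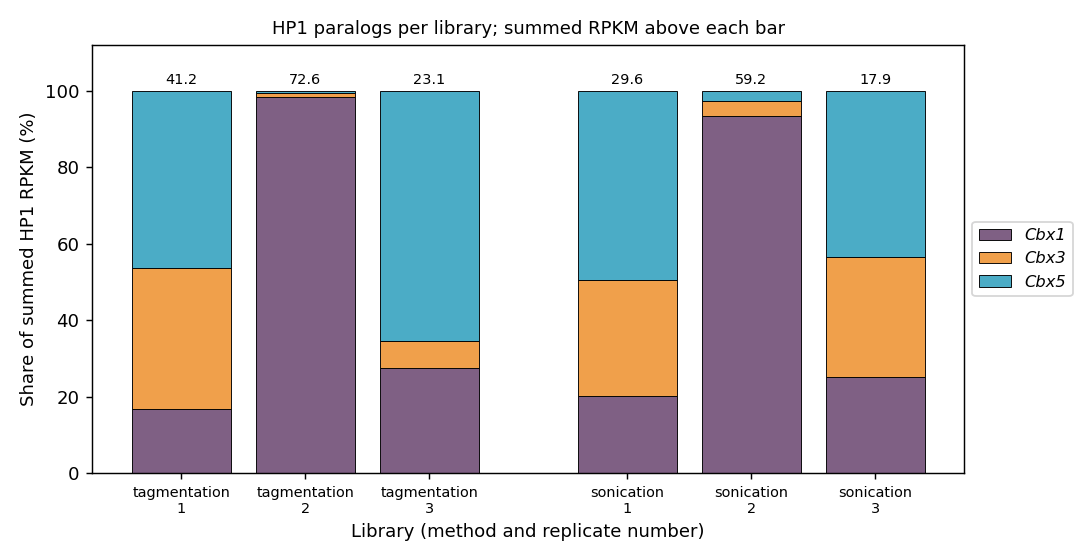
Share of Cbx1, Cbx3 and Cbx5 in the summed HP1 RPKM (percent) in tagmentation libraries 1 to 3 (left) and sonication libraries 1 to 3 (right), with the sum in RPKM above each bar. Cbx1 fills 98.2% and 93.2% of the bars of number 2, and Cbx5 is the largest part in the other 4.

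Trim28 exceeded its methyltransferase partner by a ratio that also moved with the number. The ratio of Trim28 to Setdb1 in RPKM was 16.3, 12.7 and 1362 in tagmentation libraries 1 to 3, against 26.4, 18.6 and 526 in sonication libraries 1 to 3. The high ratios of number 3 go with the low Setdb1 values there. Against the summed HP1 RPKM, Trim28 was 4.36, 4.46 and 17.0 times as high after tagmentation, and 10.7, 5.85 and 20.6 times after sonication. Trim28 was therefore above the sum of the 3 HP1 genes in all 6 libraries. The ratio was lower after tagmentation in 3 of 3 pairs (exact sign flips, p = 0.25, the smallest possible).

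A further 37 genes of H3K9 methylation and heterochromatin were followed beside these 5. Of these, 36 had a row and 28 passed the filter. Without the block limma called 0 of the 28, like the background of 0% (18 of 6327 genes at an unadjusted p under 0.05, none of them in this list). With the block it called 4 higher after tagmentation and 0 lower, against backgrounds of 1.58% of all tested genes higher and 1.71% lower. Fold changes of the list lay above 0 for 18 genes and below for 10, with a log2 median of 0.22, against 0.028 over all tested genes. Each of 5 alternatives left 0 of these calls in limma: leaving out number 2 (1 list gene at an unadjusted p under 0.05), leaving out number 3 (3 genes), no filter (7 genes), a pseudocount of 0.1 (9 genes) and median-ratio scaling (7 genes).

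Suv39h2, an H3K9 methyltransferase of constitutive heterochromatin, was called with the largest change of the 4. It had 6.59, 5.33 and 32.4 RPKM in tagmentation libraries 1 to 3, against 3.89, 2.07 and 6.85 RPKM in sonication libraries 1 to 3, a blocked log2 fold change of 1.26 (SE 0.29; limma, adjusted p 0.00316). Sumo2, one of the SUMO modifiers whose attachment to Trim28 helps it bind Setdb1, had 104, 98.1 and 67.3 RPKM after tagmentation, against 58.1, 47.7 and 25.0 RPKM after sonication (blocked log2 fold change 1.08, SE 0.30; limma, adjusted p 0.0199). The 2 methods did not overlap for Sumo2. The Sumo2 transcript has 12 copies at 90% identity or more by the same search, 4 of them at 99% or more, so its level is uncertain.

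Trim33, a relative of Trim28 in the same protein family, had 9.45, 5.54 and 10.5 RPKM in tagmentation libraries 1 to 3, against 6.99, 2.48 and 2.40 RPKM in sonication libraries 1 to 3 (1.02, SE 0.29; limma with the block, adjusted p 0.0228). Kdm4c, a demethylase of H3K9, had 42.5, 11.6 and 8.11 RPKM after tagmentation, against 21.4, 6.32 and 3.40 RPKM after sonication (0.93, SE 0.29; limma with the block, adjusted p 0.0466). Both were higher after tagmentation in 3 of 3 pairs, as were Suv39h2 and Sumo2. The blocked fit that picked these genes averages the same pair differences, so the shared sign adds no separate support. Trim24, another relative of Trim28, gave 0.91 and was just outside the threshold (limma with the block, adjusted p 0.0544).

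**Figure D5:**
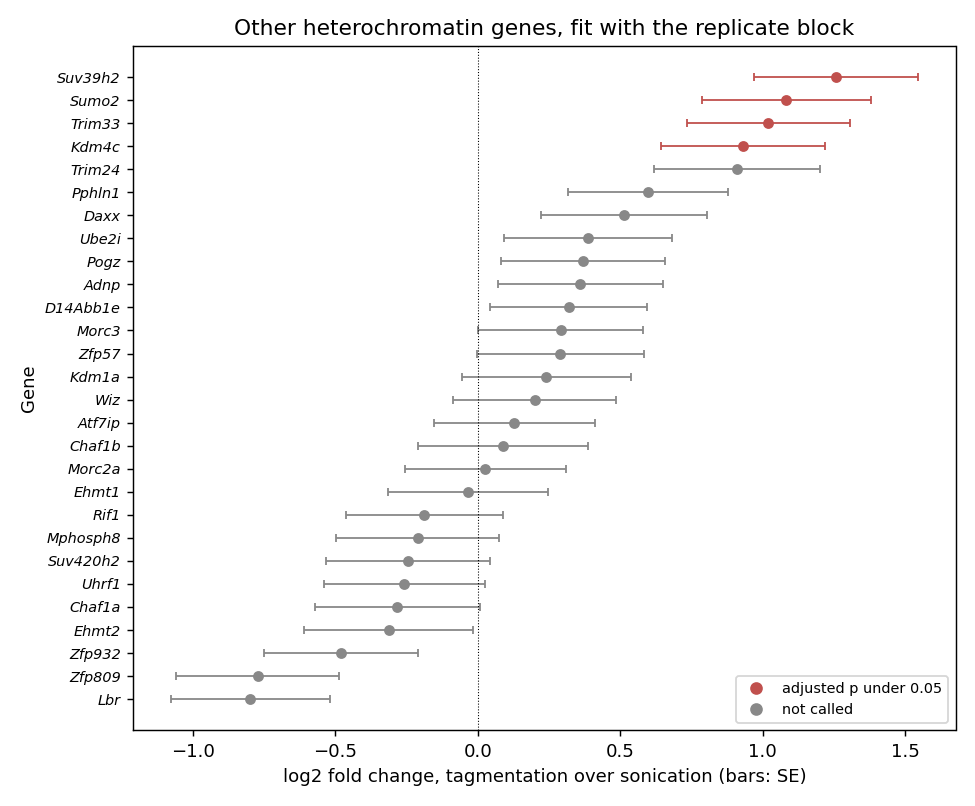
Log2 fold change, tagmentation over sonication, in the fit with the replicate block for the 28 tested heterochromatin genes besides the 5, with SE as bars and genes called at an adjusted p under 0.05 in red. Suv39h2, Sumo2, Trim33 and Kdm4c are called, and the lowest values, Lbr and Zfp809, are not.

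The replicate number separated 25 of these 28 genes (89.3%, against the background of 88.1%), with a median span of 2.25 against 2.38 for all tested genes. Number 1 was highest for 15 of them, number 2 for 9 and number 3 for 4. The same counts over all tested genes are not given here, so these are no trait of the list. The number 1 libraries also had the most genes at 1 RPKM or more (6784 after tagmentation and 6807 after sonication). Among the H3K9 methyltransferases the separation took different directions. Ehmt1 (GLP) had 24.8, 0.280 and 0.628 RPKM in tagmentation libraries 1 to 3, against 17.5, 0.147 and 1.72 RPKM in sonication libraries 1 to 3. Its partner Ehmt2 (G9a) had 37.9, 75.1 and 18.8 RPKM after tagmentation, against 68.1, 81.5 and 18.6 RPKM after sonication. Number 2 was thus the lowest for Ehmt1, at under 1 RPKM with both methods, and the highest for Ehmt2.

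Suv420h2, which methylates histone H4 at HP1-bound chromatin, spanned 4.91, the widest of the list, with 0.283, 37.1 and 22.5 RPKM in tagmentation libraries 1 to 3, against 0.543, 45.9 and 25.3 RPKM in sonication libraries 1 to 3. Atf7ip, the cofactor that stabilises Setdb1, had 22.8, 0.230 and 5.50 RPKM after tagmentation, against 25.4, 0.191 and 3.62 RPKM after sonication. It was lowest in number 2, where Setdb1 was highest. Adnp, an HP1 partner, had 45.6, 27.0 and 1.05 RPKM after tagmentation, against 36.8, 17.9 and 0.779 RPKM after sonication.

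The KRAB zinc finger genes, whose proteins bring Trim28 to DNA, were uneven. Zfp57, which guards imprinted regions, had 23.7, 26.7 and 16.3 RPKM in tagmentation libraries 1 to 3, against 24.5, 22.5 and 9.84 RPKM in sonication libraries 1 to 3. Zfp809, known for silencing murine leukaemia virus elements, had 44.6, 0.151 and 0.0773 RPKM after tagmentation, against 34.2, 1.92 and 1.73 RPKM after sonication. Zfp708 was below 1 RPKM in all 6 libraries and was not tested. Of the others at a high level, Chaf1b, a chromatin assembly subunit, averaged 70.1 RPKM over the 6 libraries and the demethylase gene Kdm1a 39.7 RPKM. Kdm1a, Chaf1a and Pogz were the 3 tested list genes that did not separate by number.

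Germ line and 2-cell-stage genes that this or related machinery keeps silent in embryonic stem cells were followed as a last list. Of 12 listed, 8 had a row, and 4 of these (Stk31, Zscan4c, Zscan4d and Zfp352) stayed under 1 RPKM in each of the 6 libraries, as did 27.1% of all 12331 rows. Mael, a piRNA pathway gene, reached 1.2 RPKM in tagmentation library 1, and Ddx4, a germ cell RNA helicase gene, 2.94 RPKM in sonication library 2. Both were under 1 RPKM in the other 5 libraries. Taf7l, a germ line transcription factor gene, had 7.80 RPKM in tagmentation library 1 and 4.20 RPKM in sonication library 1, and was at 0 to 0.164 RPKM in the other 4. Sycp3, a meiotic chromosome protein gene, had 0.764, 2.96 and 3.55 RPKM in tagmentation libraries 1 to 3, against 2.50, 4.50 and 7.47 RPKM in sonication libraries 1 to 3.

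The genes whose profile over the 6 libraries was most like each of the 5 were found by Pearson correlation of log2(RPKM + 1), among about 3660 named genes with a mean of at least 10 RPKM. The 6 libraries form 3 pairs and share their depth within each library, so many genes reach high values by following the same numbers. Trim28 was most like Bckdk (r = 0.997), Rpl34 (0.997) and Tuba1c (0.991), with 50 genes over 0.95. Setdb1 was most like Sbds (0.997), Brd2 (0.996) and Ung (0.994), with 208 over 0.95. Cbx1 was most like Kif2c (0.999), Trmt61b (0.998) and Pts (0.998), with 132 over 0.95. Cbx3 was most like Hnrnpa0 (0.995), Dek (0.993) and Rad21 (0.993), with 72, and Cbx5 was most like Epb4.1l2 (0.998), Ccrn4l (0.997) and Bnip3l (0.994), with 94. For example, Pts had 0.919, 61.5 and 1.03 RPKM in tagmentation libraries 1 to 3, against 0.669, 31.7 and 0.256 RPKM in sonication libraries 1 to 3, which is the course of Cbx1.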

How the data were processed

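The authors deposited RPKM values of 12331 genes for 6 libraries, with the alignments per library, per the file headers. The submitters' processing notes name mm9, CASAVA 1.7.0 and Partek without roles; no role or setting of an aligner and no annotation is named there. RPKM were tested as log2(RPKM + 1) with limma 3.58.1 in R 4.3.3 (eBayes with a trend, two-sided, Benjamini-Hochberg, threshold 0.05), with genes kept at 1 RPKM in at least 3 libraries. Shares were tested with an exact permutation test. Copies were searched with blastn 2.17.0, and coding sequences aligned with MAFFT 7.526. Read numbers are estimates from RPKM, alignments and 1 transcript's length, and cover counting error only, since PCR reads are not independent molecules. Same-numbered libraries of the 2 methods deviated together from their method means (r = 0.952, 0.969 and 0.934), so the numbers were taken as pairs. The labels do not say that they share a cDNA. Tested on simulated data with 100 genes changed 4-fold, limma without the block recovered 0 and with it 100. Of 100 genes changed by 1 on the log2 scale it recovered 0 without the block and 88 with it, and 62 between numbers. In the simulation between numbers the genes not shifted were flat, whereas 88.1% of tested genes were called in the data. The 62 therefore does not give the power of that test here. Every simulated gene had the same noise, the median spread within pairs, so genes of wider spread are not covered. Named genes followed a rule: the 5 genes, list genes called or of high level, and the 3 most alike profiles per gene. Other list genes named, such as Zfp708, Pogz, Chaf1a and Ehmt1, were chosen after their values were seen. The 5 genes and the lists were chosen with earlier results of these data known. List genes were matched through RefSeq synonyms (D14Abb1e for Fam208a), and Setdb2 was not analysed here. Alternatives covered pseudocounts, filters, scalings, the block and left-out libraries.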

Additional observations from a re-analysis of the deposited data

How the results depend on the processing

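With the replicate block, 208 genes were called between methods (100 higher, 108 lower) in place of 0, and the block changed no call of the 5 genes. The blocked count was 8 with a pseudocount of 0.1, 476 with quantile normalization, 0 with no filter or median-ratio scaling (limma, 716 and 1220 genes at an unadjusted p under 0.05), and 10 to 1051 without each number. Between numbers, 3411 genes were called when a mean of 10 RPKM was required, against 5577, since fewer genes were tested. That filter left out Cbx3 and Cbx5, and 12 of 14 list genes were then called. List genes called with the block numbered 0 to 8 without each number.

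Each of the 5 genes changed sign between methods without some library in the fit without the block, where leaving out a library breaks a pair. Cbx3 was -0.79 with a pseudocount of 0.1 and -0.16 with one of 5. Cbx5 turned to -0.10 with a pseudocount of 0.1 in both fits. Setdb1 turned to 0.057 with a pseudocount of 5 and to 0.11 with quantile normalization, in both fits. Without each library the log2 fold change was -0.51 to 0.052 for Trim28, -1.11 to 1.24 for Setdb1, -0.76 to 1.38 for Cbx1, -1.46 to 0.12 for Cbx3 and -0.58 to 1.33 for Cbx5. With the block, without each number, it was -0.26 to 0.16 for Setdb1 and -0.25 to 0.62 for Cbx5. For Trim28 it was then -0.46 to -0.0040, for Cbx1 0.27 to 0.39 and for Cbx3 -1.10 to -0.094, each without a change of sign. The difference in share of HP1 (percentage points, tagmentation minus sonication) was -24.1 to 24.8 for Cbx1, -17.8 to 0.097 for Cbx3 and -8.92 to 24.0 for Cbx5. Between numbers, Trim28 was called with median-ratio scaling (1.155) and quantile normalization (0.60), and Cbx3 was not with no filter (2.38). Without each number the span was 0.22 to 3.33 for Cbx1 and 0.58 to 3.155 for Cbx5. The cause of these changes was not tested.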

Other observations

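Of the 5 genes, 3 have a head-to-head neighbour with a start site within 1000 bases in the GENCODE M21 annotation. These are Slc27a5 for Trim28 (922 bases), which was not analysed here, and the RNA-binding hnRNP genes Hnrnpa2b1 for Cbx3 (466 bases) and Hnrnpa1 for Cbx5 (616 bases). These neighbours were looked up after the values of the 5 genes were known. Hnrnpa2b1 had 138, 33.9 and 37.8 RPKM in tagmentation libraries 1 to 3, against 90.1, 36.3 and 25.9 RPKM in sonication libraries 1 to 3. Like Cbx3 it was highest in number 1 in both methods. Hnrnpa1 had 30.1, 26.9 and 13.6 RPKM after tagmentation, against 25.1, 25.6 and 11.8 RPKM after sonication. It stayed near its highest level in number 2, where Cbx5 had 0.472 RPKM after tagmentation and 1.68 RPKM after sonication.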
